A study of Caenorhabditis briggsae with 9 samples.

Results

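Mutant strains of Caenorhabditis briggsae were compared directly with each other, gu167 against gu163, with 3 libraries of whole L3 larvae each. The allele gu167 lies in Cbr-htz-1, a locus also called Cbr-ivp-2, and gu163 lies in Cbr-spr-4, also called Cbr-ivp-1. The 6 libraries were chosen by their strain labels, from 9 in the series. The other 3 libraries, of the wild-type isolate AF16, stayed out of the difference between the mutants. Every gene identifier of the count table was a member, 22922 in all, and 12507 passed the filter on low counts and were tested. The study sequenced the mutants because vulval precursor cells respond at this stage to Cbr-lin-3, an EGF-like signal, and the direct contrast asks which transcripts separate one mutant from the other. All animals were bleached and synchronized, grown at 20 degrees on standard plates, checked under Nomarski optics and harvested before the vulval precursors (Pn.p cells) divide. RNA was extracted with TRIZOL, depleted of rRNA and read from one end on an Illumina HiSeq. The labels describe the replicates as independent and biological. The sources used here do not give the kind of mutation in either allele, the number of isolates or any background mutations, and allele and strain background cannot be told apart.

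In C. elegans, the histone variant H2A.Z, encoded by htz-1, replaces H2A in a share of nucleosomes and marks many promoters, and spr-4 encodes a zinc-finger protein recovered as a suppressor of presenilin mutations. A nematode larva sheds and rebuilds its collagen cuticle at every molt, and the genes of collagens, of the enzymes that process them and of many hedgehog-related proteins are switched on and off in the epidermis once per molting cycle. Mitochondria carry ribosomes of their own, whose proteins are made from nuclear genes, and a separate set of chaperones folds proteins inside the organelle.

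Library totals lay between 8294524 and 14095189 counts. The first principal component held 40.9% of the variance and placed the gu167 libraries between -32.8 and -23.1, the gu163 libraries between 45.6 and 67.8 and the AF16 libraries between -29.7 and -24.4. The second held 26.6% and spread the libraries within each strain. They ranged from -45.8 to -13.1 in gu167, -19.5 to 21.5 in gu163 and 11.7 to 66.3 in AF16, with AF16 replicate 3 the highest. Levels below are in CPM, a gene's counts relative to the TMM-scaled total of its library, differences are log2 of gu167 over gu163 with their standard error, and n is 3 libraries per strain throughout. A gene was called where the adjusted p of edgeR's quasi-likelihood test, corrected over all genes tested, was under 0.05. Reads of near-identical family members, such as collagens and C-type lectins, or of overlapping genes may have been split between them, and the levels of such genes are uncertain.

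More genes were lower than higher in gu167. Of the 12507 genes tested, 1683 were called (13.5%), of which 641 were higher in gu167 (5.13%) and 1042 were lower (8.33%). The lower side also reached further. Among genes called higher, 225 exceeded 2-fold, 45 exceeded 4-fold and 1 exceeded 16-fold, whereas among genes called lower the counts were 744, 313 and 66. The median log2 difference was 0.84 for genes called higher and -1.47 for those called lower, against 0.02 for all genes tested. The 3 gu167 libraries and the 3 gu163 libraries did not overlap for 4851 genes (38.8%), a group that held 1673 of the 1683 called. The counts depended on single libraries. The 641 higher genes became 190 without gu163 replicate 1, 425 without gu163 replicate 2, 269 without gu163 replicate 3, 382, 239 and 286 without gu167 replicates 1, 2 and 3, and 984 without AF16 replicate 3. The 1042 lower genes became 520 without gu163 replicate 1, 614 without gu163 replicate 3, 519 without gu167 replicate 2 and 471 without gu167 replicate 3. In every fit that left out 1 of the 9 libraries, 153 of the higher and 395 of the lower genes stayed called.

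**Figure D1:**
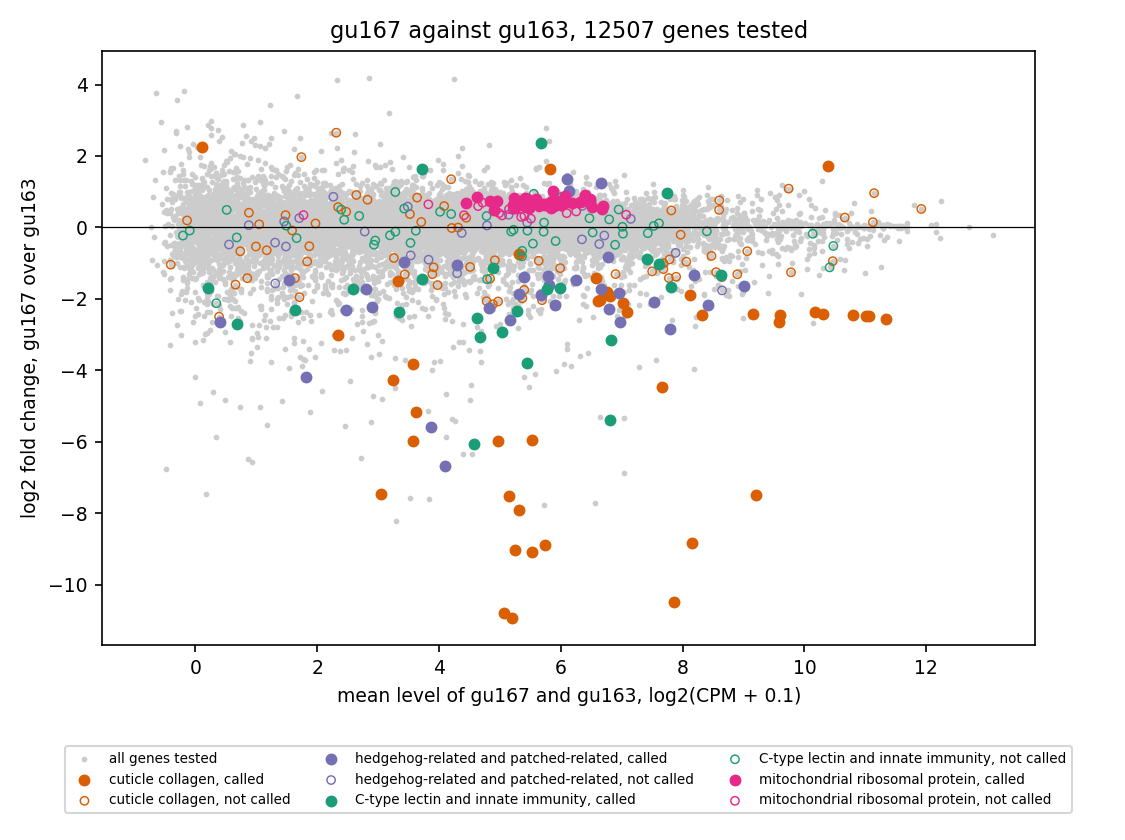
Log2 difference of gu167 over gu163 for each of 12507 genes against the mean level of both strains as log2(CPM + 0.1). Grey points are all genes tested, and colours mark 4 gene lists, filled where called and open where not. Called collagens reach down to -10.92, and the called mitochondrial ribosomal proteins lie in a narrow band between 0.48 and 1.02.

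The mutated genes were checked first. Cbr-spr-4 was measured at 152, 156 and 144 CPM in gu167, against 251, 207 and 249 CPM in gu163. The AF16 libraries had 88.0, 118 and 120 CPM, below both mutants, a placement that was not tested. Every gu167 library lay below every gu163 library, and the level was 1.56-fold lower in gu167 (log2 -0.65 ± 0.16, edgeR adjusted p = 0.0264). The exact two-sided permutation test gave p = 0.1, the smallest value that 3 libraries against 3 allow, and the edgeR call was lost without gu163 replicate 1, gu163 replicate 3 or any 1 gu167 library (adjusted p up to 0.0966). Cbr-htz-1 was measured at 61.0, 62.8 and 57.5 CPM in gu167 and 63.8, 49.7 and 53.2 CPM in gu163. The strains overlapped, with a difference of 0.12 ± 0.15 (adjusted p = 0.649, exact permutation p = 0.4). The transcript levels therefore do not tell which strain carries a lesion in which of these genes. Of the 5 genes on either side of Cbr-spr-4 in the order of assembly CB4, Cbr-bmk-1, a kinesin gene, was lower (-0.67), and CBG11851 was higher, with 21.2, 22.5 and 18.6 CPM in gu167 against 11.3, 11.6 and 13.1 CPM in gu163 (0.79 ± 0.16, adjusted p = 0.0134).

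Cbr-lin-3 itself did not separate the mutants. It reached 2.09, 2.90 and 2.31 CPM in gu167 and 2.73, 3.81 and 2.90 CPM in gu163, with overlapping libraries (-0.37 ± 0.33, adjusted p = 0.502, exact permutation p = 0.2). In AF16 it had 0.705, 0.261 and 0.755 CPM, below both mutants, a placement that was not tested. Among 42 tested genes of the EGF and Ras pathway, which relays the lin-3 signal, 1 was called and the median difference was 0.07. That gene was Cbr-lin-7, whose C. elegans counterpart holds the LIN-3 receptor LET-23 at the basolateral membrane of vulval precursors. Cbr-lin-7 stood at 59.0, 48.6 and 48.8 CPM in gu167, against 32.0, 26.5 and 27.7 CPM in gu163, while AF16 had 52.8, 54.4 and 50.7 CPM. The gu167 libraries spanned the AF16 range and all lay above gu163, 1.82-fold higher than gu163 (0.86 ± 0.14, adjusted p = 0.00551), and the call was kept in every fit without 1 library. Without AF16 replicate 3, 1 gene of the list was also lower. The receptor gene Cbr-let-23 differed by -0.40 and was not called (adjusted p = 0.121).

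Other signalling and chromatin lists were called at or below the rate of all genes. Of 30 genes of the Notch pathway, 1 was higher and 3 were lower (13.3% called, against 13.5% of all genes). The 3 lower became 8 by DESeq2, 5 by limma-voom, 6 with the 6 mutant libraries alone, 7 without AF16 replicate 3 and 1 without gu163 replicate 1, gu163 replicate 3 or gu167 replicate 2, and the higher one became 0 without any 1 gu163 library or gu167 replicate 2 or 3. The lower ones were led by Cbr-dos-2, of a co-ligand-like protein in C. elegans, with 2.50, 4.72 and 1.41 CPM in gu167, against 24.0, 12.0 and 13.7 CPM in gu163 (-2.47 ± 0.49), kept without any 1 library. The calls of Cbr-lag-1, the transcription factor of the pathway (-0.95, lost in 4 of 9 leave-one-out fits, adjusted p up to 0.0720), of Cbr-dsl-3 (-1.10, lost in 8, up to 0.124) and of the higher Cbr-dos-1 (0.98, lost in 5, up to 0.102) rested on more of the libraries. The receptor genes Cbr-lin-12 (-1.04, adjusted p = 0.0683) and Cbr-glp-1 (-0.55, 0.0619) were not called. Among 34 Wnt and Hox genes, 29 genes tied to H2A.Z and 15 heterochronic timing genes, edgeR called 0 in each list. At an unadjusted p under 0.05 these lists held 3, 6 and 2 genes, and DESeq2 called 0, 1 and 0. These zeros depended on the libraries in the fit. Without AF16 replicate 3, edgeR called 1 lower Wnt and Hox gene, 2 higher and 2 lower H2A.Z genes and 2 higher heterochronic genes. With the 6 mutant libraries alone it called 0 Wnt and Hox genes, 2 higher and 1 lower H2A.Z genes and 1 higher heterochronic gene. The H2A.Z list also held 1 higher gene without AF16 replicate 1, and the Wnt and Hox list 1 higher gene without gu167 replicate 1. Of 36 synMuv, DREAM and NuRD genes, many of whose C. elegans counterparts restrain lin-3 expression, 3 were lower, Cbr-lin-13 (-0.64), Cbr-let-418 (-0.54) and Cbr-dcp-66 (-0.45), each lost in 5 to 8 of the 9 leave-one-out fits (adjusted p up to 0.152), and 2 genes of the list were called higher without AF16 replicate 3. Among the 24 presenilin suppressor and CoREST genes, those lower were Cbr-wdr-5.2 and Cbr-spr-4 itself. The gene Cbr-wdr-5.2, a paralog of the WD-repeat subunit of H3K4 methyltransferase complexes, had 15.4, 17.1 and 14.6 CPM in gu167 against 38.1, 32.0 and 38.4 CPM in gu163, again without overlap (-1.20 ± 0.20, adjusted p = 0.00605).

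**Figure D2:**
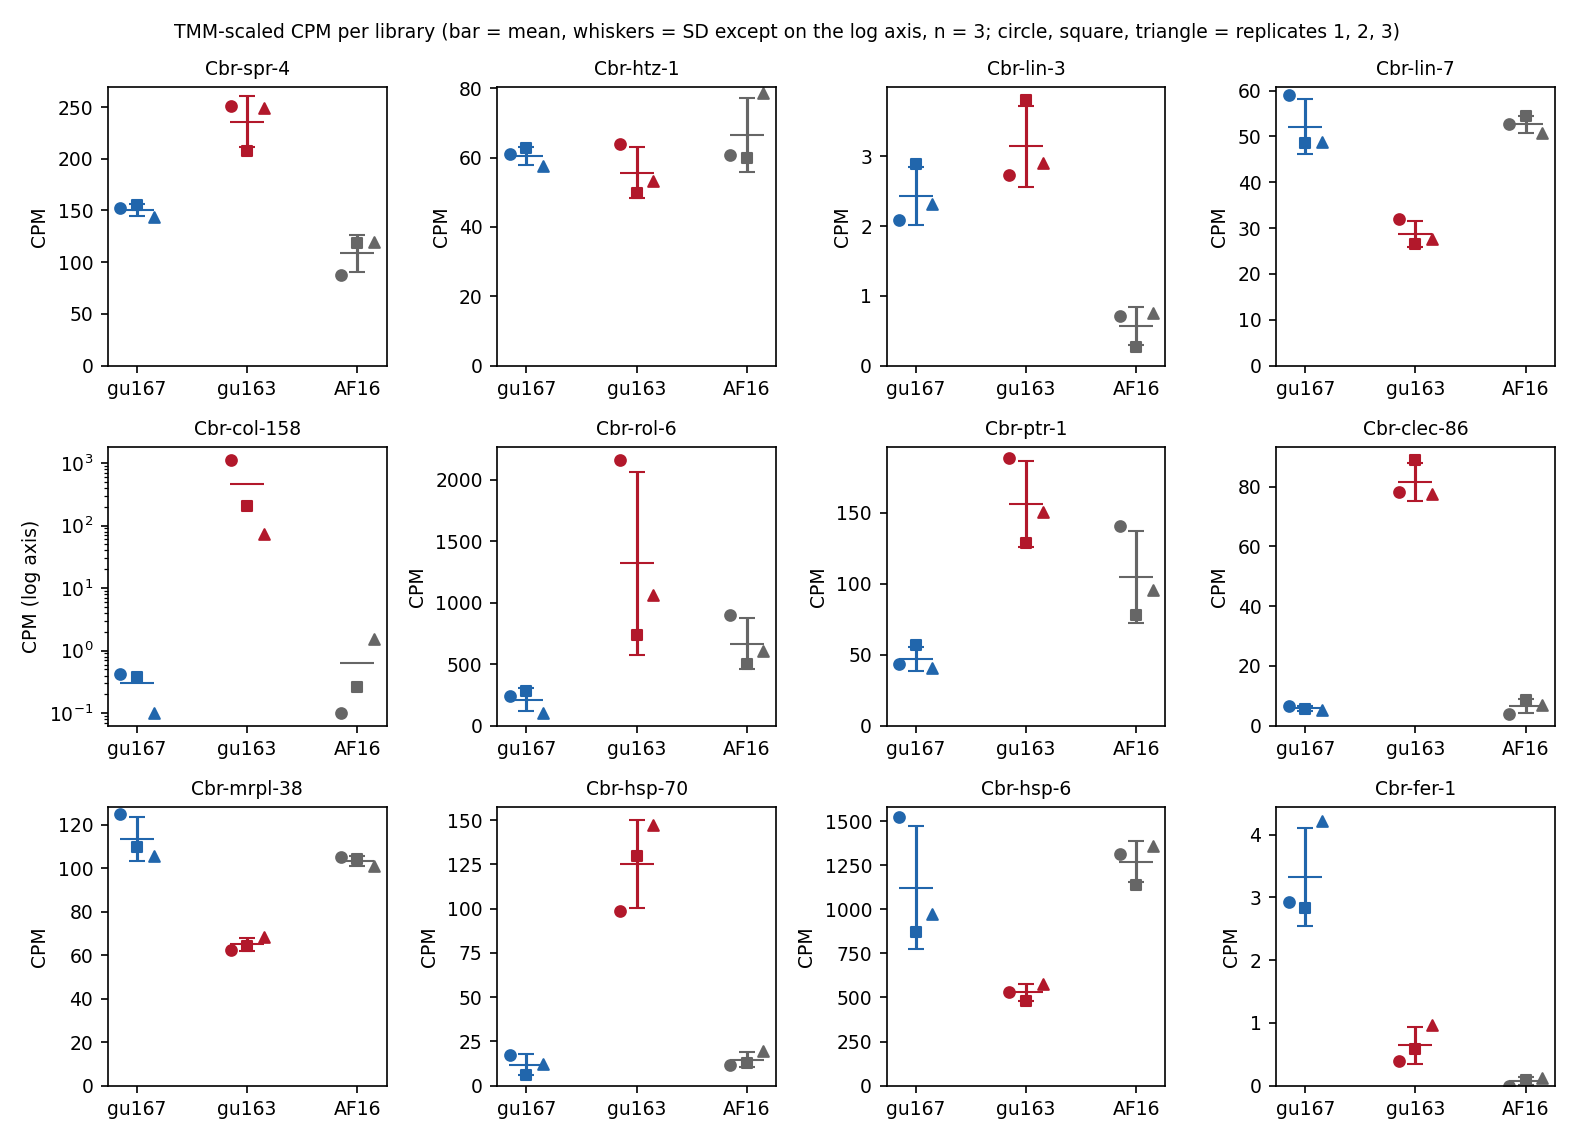
Levels of 12 genes in each library, in CPM, with gu167 on the left, gu163 in the middle and AF16 on the right of each panel; points are libraries, and bars and whiskers are the mean and SD of 3, except that Cbr-col-158 is drawn on a log axis without whiskers. The gu167 and gu163 libraries overlap for Cbr-htz-1 and Cbr-lin-3 and are apart for Cbr-lin-7, Cbr-rol-6, Cbr-clec-86 and Cbr-mrpl-38.

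Many cuticle collagen genes were lower in gu167. Of 114 tested, 39 were lower and 3 were higher (36.8% called, against 13.5% of all genes), 85 had a negative difference, and the median was -1.31, against 0.02 for all genes. Collagens known from body-shape mutants of C. elegans were among them. Cbr-rol-6 was measured at 238, 285 and 105 CPM in gu167, against 2159, 739 and 1061 CPM in gu163. All gu167 libraries lay below all gu163 libraries, and the level was 6.30-fold lower (-2.65 ± 0.48, adjusted p = 0.0084). Cbr-sqt-2 stood at 467, 459 and 188 CPM in gu167, against 3031, 1171 and 1602 CPM in gu163 (-2.38 ± 0.43). The related Cbr-sqt-1 (-2.45 ± 0.43), Cbr-sqt-3 (-2.41 ± 0.46) and Cbr-lon-3 (-1.90), chosen after their values were seen, were lower as well, and all 5 calls were kept without any 1 library. Cbr-dpy-5 was lower by a like amount, with 667, 906 and 368 CPM in gu167 against 6448, 1736 and 2730 CPM in gu163 (-2.49 ± 0.56, adjusted p = 0.0181). That call was lost without gu163 replicate 1, where the difference was -1.80, and without gu167 replicate 1 or 3 (adjusted p up to 0.0676). Cbr-dpy-13 (-2.48) and Cbr-dpy-4 (-2.46), also chosen after their values were seen, were lower, and both calls were lost without gu163 replicate 1 or gu167 replicate 3 and in 1 other such fit each (up to 0.0690).

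Some of the lower collagens were close to absent in gu167 and in AF16 alike. Among the 39 lower collagens, 17 had a mean under 5 CPM in both gu167 and AF16, a limit chosen after the values were seen. These 17 ranged from 0.021 to 1.58 CPM in gu167, from 0.042 to 2.52 CPM in AF16 and from 8.82 to 570 CPM in gu163. Their median difference was -7.52, and gu163 was the strain in which they were high. Cbr-col-158 reached 0.417, 0.378 and 0.10 CPM in gu167, against 1114, 209 and 73.5 CPM in gu163 (-10.48 ± 1.28, adjusted p = 0.00167). Cbr-col-43 had 2.17, 0.819 and 0.703 CPM in gu167, against 1369, 251 and 89.7 CPM in gu163 (-8.85 ± 1.12). Cbr-col-36, with a gu167 mean above that limit and therefore not among the 17, had 10.9, 5.42 and 3.22 CPM in gu167, against 2668, 524 and 337 CPM in gu163 (-7.49 ± 0.93). The gu163 libraries themselves spread widely for these genes, with replicate 1 far above the others, and without it the differences of Cbr-col-158, Cbr-col-43 and Cbr-col-36 were -8.78, -7.13 and -6.06. Cbr-col-43 stood at -9.51 without gu167 replicate 1. The smaller difference of Cbr-col-71 was steadier, with 1.25, 1.13 and 0.804 CPM in gu167 against 10.2, 6.96 and 9.34 CPM in gu163 (-3.02 ± 0.33, adjusted p = 0.000893). Cbr-col-45 had 1 count over the gu167 libraries and 1902 over the gu163 libraries, a depth-scaled ratio of 2236 (exact 95% interval 401 to 88344), and Cbr-col-163 had 1 and 1715 counts (ratio 2016, 361 to 79663). Cbr-col-2, whose C. elegans counterpart is a collagen of the dauer larva, differed by -8.89, and Cbr-col-114, Cbr-col-102, Cbr-col-84 and Cbr-col-40 by -9.08, -9.04, -7.91 and -7.52. By limma-voom the calls of Cbr-col-45, Cbr-col-163, Cbr-col-114, Cbr-col-102, Cbr-col-2, Cbr-col-84 and Cbr-col-40 were lost (adjusted p from 0.0574 to 0.159), and without gu163 replicate 1 the last 5 of these stood between -7.26 and -5.54. Without gu167 replicate 2, Cbr-col-84, Cbr-col-102 and Cbr-col-114 stood at -8.65, -10.35 and -10.62, and with no filter on low counts the call of Cbr-col-84 was lost.

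The other 22 lower collagens had mean levels from 5.19 to 753 CPM in gu167 and from 14.8 to 4449 CPM in gu163, with a median difference of -2.40. Library gu163 replicate 1 held the highest gu163 level for all 39 lower collagens. The summed level of the list was 24748, 26299 and 25360 CPM in gu167, against 79038, 25187 and 39077 CPM in gu163, so that gu163 replicate 2 lay within the gu167 range in total. Without gu163 replicate 1 the list held 25 lower genes, and without gu167 replicate 3 it held 24. In whole animals, fewer cells of a type and less RNA per cell cannot be told apart. Of the 3 higher collagens, Cbr-col-39 had 1825, 1915 and 2405 CPM in gu167, against 717, 360 and 774 CPM in gu163 (1.73 ± 0.37, adjusted p = 0.0149; 0.0502 without gu167 replicate 3), and Cbr-col-146, chosen after its value was seen, had 93.4, 78.7 and 84.9 CPM, against 33.2, 15.4 and 33.9 CPM (1.64 ± 0.31). Cbr-col-86 (2.24) was the third, a call lost in 5 of 9 fits without 1 library (up to 0.132), and the count of higher collagens was 1 without gu167 replicate 3 and 5 without gu167 replicate 1.

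Genes that build and process the cuticle at the molt were also mostly lower among those called. Of 62 tested, 24 were lower and 2 were higher in gu167 (41.9% called), with a median of -0.97. Both catalytic subunits of the prolyl 4-hydroxylase that modifies nascent collagen were lower. Cbr-phy-2 stood at 96.3, 91.4 and 81.4 CPM in gu167, against 254, 212 and 244 CPM in gu163 (-1.40 ± 0.20, adjusted p = 0.00396). Cbr-dpy-18 stood at 39.0, 36.5 and 29.8 CPM in gu167, against 125, 78.4 and 91.3 CPM in gu163 (-1.48 ± 0.25, adjusted p = 0.00643). Neither gene had overlapping libraries. Cbr-acn-1, of an ACE-like protein that C. elegans larvae need for molting, had 213, 189 and 133 CPM in gu167, against 915, 467 and 589 CPM in gu163 (-1.88 ± 0.28). Chosen after their values were seen, the molting-defect genes Cbr-mlt-9 (-1.95 ± 0.35) and Cbr-mlt-8 (-1.62 ± 0.29), the megalin-like receptor gene Cbr-lrp-1 (-1.20 ± 0.22) and the thioredoxin-like Cbr-dpy-11 (-1.44) were lower and stayed called without any 1 library. Calls of Cbr-mlt-10 (-1.80), Cbr-mlt-11 (-1.34), Cbr-noah-1 (-1.14) and Cbr-nas-37 (-1.31), the last an astacin protease needed to shed the old cuticle in C. elegans, were lost in 4 to 6 of the 9 fits (adjusted p up to 0.144). The cuticlin gene Cbr-cut-1, known from the dauer cuticle of C. elegans, had 2 counts over the gu167 libraries and 498 over the gu163 libraries, a ratio of 293 (exact 95% interval 80.6 to 2423), and limma-voom did not call it (0.0998). The 2 higher members were the astacin genes Cbr-nas-33, with 29.3, 32.3 and 36.1 CPM in gu167 against 7.29, 9.94 and 17.8 CPM in gu163 (1.46 ± 0.28), and Cbr-nas-9 (1.24 ± 0.25). The 24 lower genes became 12 without gu163 replicate 1, 13 without gu163 replicate 3 and 11 without gu167 replicate 2 or 3. The position of the animals in the molting cycle at harvest was not tested.

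Hedgehog-related and patched-related genes had the highest share of called genes after the mitochondrial ribosome. Of 56 tested, 29 were lower and 3 were higher in gu167 (57.1% called), with a median of -1.31. Nematodes use these families, expanded from hedgehog-like ligands and patched-like membrane proteins, largely in the epidermis and at the molt. Among the secreted ligand-like genes, Cbr-grl-10 had 2.50, 2.83 and 2.41 CPM in gu167, against 14.7, 10.4 and 11.3 CPM in gu163 (-2.22 ± 0.23, adjusted p = 0.000656). Cbr-grl-3 had 0.501, 0.693 and 0.502 CPM in gu167, against 56.8, 21.2 and 7.25 CPM in gu163 (-5.58 ± 0.73, and -4.63 without gu163 replicate 1). Both genes were flat within gu167, and Cbr-grl-3 spread widely within gu163. The warthog gene Cbr-wrt-6, with 39.8, 47.6 and 16.3 CPM in gu167 against 271, 184 and 197 CPM in gu163 (-2.65 ± 0.43), was chosen after its values were seen, as were Cbr-grd-7 (-4.19 ± 0.65), Cbr-grl-7 (-2.85) and Cbr-wrt-1 (-1.85). By family, 5 of 8 warthog genes and 8 of 15 ground-like genes were lower, and 1 ground-like gene, Cbr-grl-21, was higher (1.36, lost in 6 of 9 fits without 1 library, up to 0.148).

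The receptor-like members called were mostly lower too. Cbr-ptr-1, a patched-related gene, had 43.5, 56.6 and 40.5 CPM in gu167, against 188, 128 and 151 CPM in gu163. Its gu167 mean of 46.8 ± 8.55 CPM was 3.32-fold below the gu163 mean of 156 ± 30.3 CPM (SD, n = 3; log2 -1.73 ± 0.24, adjusted p = 0.00339), and AF16 lay between at 104 ± 32.5 CPM. Cbr-ptc-3, one of the patched homologues proper, had 253, 285 and 211 CPM in gu167, against 1086, 559 and 702 CPM in gu163 (-1.65 ± 0.28). Cbr-ptr-2 (-1.88) and the Dispatched-like Cbr-che-14 (-1.04) were lower too, all 3 chosen after their values were seen and kept without any 1 library. Of 21 patched-related genes, 10 were lower, whereas Cbr-ptr-12 (1.25, lost in 3 of 9 fits, up to 0.0853) and Cbr-ptr-13 (1.02, lost in 6, up to 0.163) were higher. Without gu163 replicate 1 or gu167 replicate 3 the list held 18 lower genes, and without gu167 replicate 2 it held 19. The 3 higher ones became 0 without any 1 of these 3 libraries and 1 without gu163 replicate 2 or 3. The summed level was 2441, 2835 and 2374 CPM in gu167, against 7971, 4488 and 5442 CPM in gu163, without overlap.

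**Figure D3:**
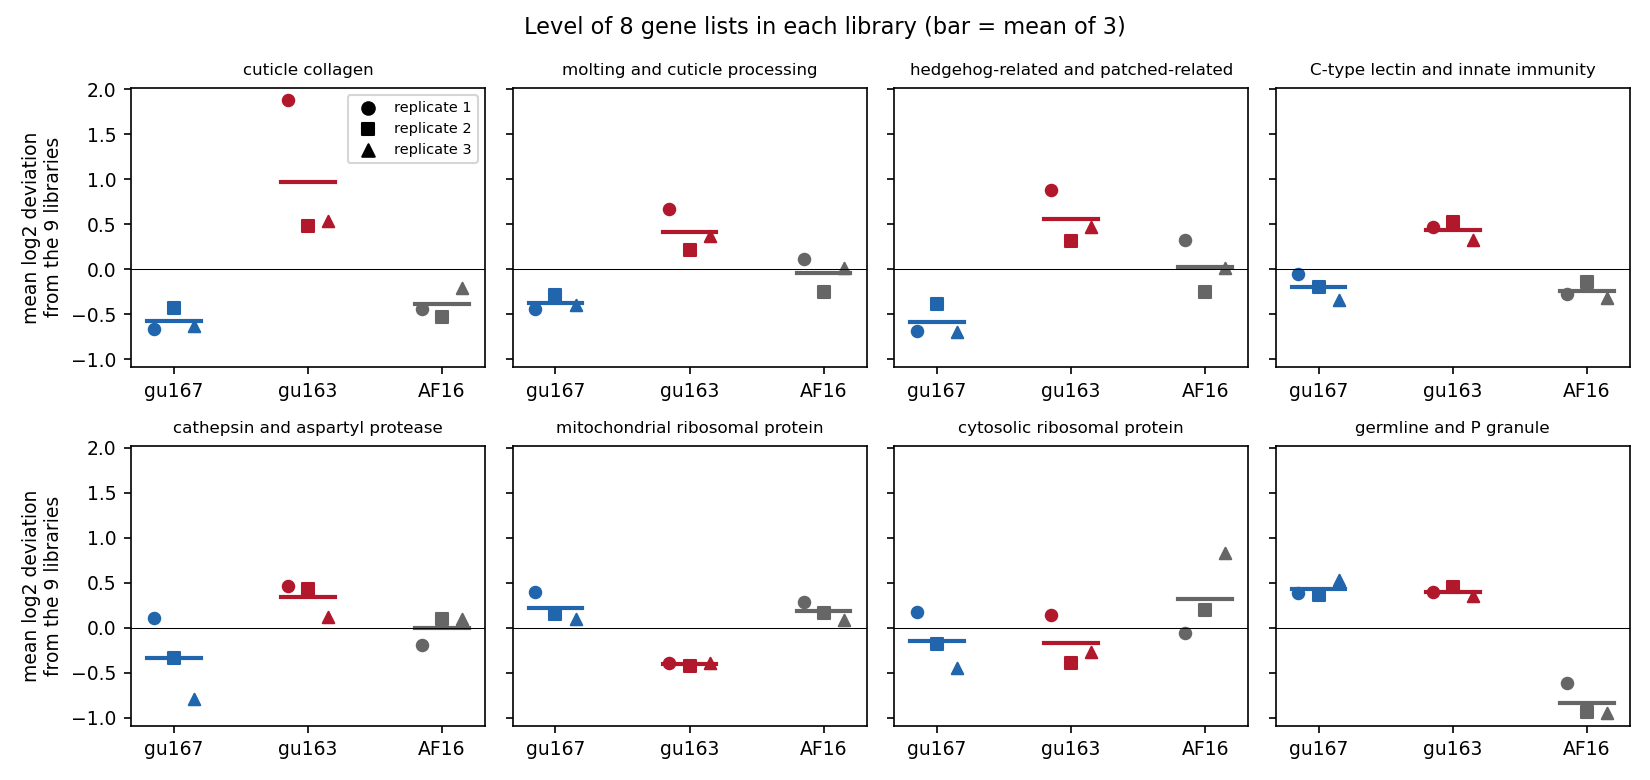
Mean log2 deviation of the genes of 8 lists from their mean over 9 libraries, one point per library, with gu167 on the left, gu163 in the middle and AF16 on the right. Collagens lay at -0.67, -0.43 and -0.64 in gu167 against 1.88, 0.48 and 0.54 in gu163, and mitochondrial ribosomal proteins at 0.40, 0.16 and 0.10 in gu167 against -0.39, -0.42 and -0.39 in gu163.

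A set of immune effector genes was lower in gu167. Of 75 tested C-type lectin and innate immunity genes, 21 were lower and 3 were higher (32.0% called), with a median of -0.18. Cbr-clec-86 was measured at 6.68, 5.61 and 5.12 CPM in gu167, against 78.3, 88.9 and 77.4 CPM in gu163, which made it 14.0-fold lower (-3.81 ± 0.25, adjusted p = 2.16e-05). Cbr-clec-187 had 7.93, 7.05 and 6.83 CPM in gu167, against 34.1, 53.6 and 37.9 CPM in gu163 (-2.53 ± 0.22, adjusted p = 0.000241). Cbr-clec-78 had 0.501, 0.756 and 0.804 CPM in gu167, against 86.1, 28.3 and 25.6 CPM in gu163 (-6.06 ± 0.58, and -5.29 without gu163 replicate 1). In all 3 lectin genes the strains did not overlap. Cbr-clec-60, with 5.76, 6.55 and 2.91 CPM in gu167 against 271, 174 and 209 CPM in gu163 (-5.40 ± 0.57), was chosen after its values were seen. So were the antimicrobial caenacin peptide genes Cbr-cnc-2 (-2.31), Cbr-cnc-3 (-2.36) and Cbr-cnc-4 (-2.94) and the lysozyme gene Cbr-lys-10 (-1.33), all of them lower and kept without any 1 library. The highest-fold exception was Cbr-clec-186, whose identifier CBG24375 directly precedes that of Cbr-clec-187 (CBG24376). It had 95.8, 81.6 and 78.0 CPM in gu167, against 10.2, 26.9 and 11.8 CPM in gu163 (2.38 ± 0.33, adjusted p = 0.00298), the opposite direction to its neighbour in number. The other 2 higher calls, Cbr-nlp-27 (0.98) and Cbr-clec-57 (1.64), were lost in 6 and 7 of the 9 fits, and the count of higher genes was 1 without gu163 replicate 1 or gu167 replicate 1 or 2.

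Some lysosomal and digestive protease genes were lower as well. Of 14 cathepsin and aspartyl protease genes tested, 6 were lower and 0 were higher (42.9% called, against 13.5% of all genes), with a median of -0.36. By the other tools the higher count was also 0, as it was at an unadjusted p under 0.05. Cbr-cpr-1, a cathepsin B-like gene of the C. elegans intestine, had 236, 140 and 72.8 CPM in gu167, against 1240, 617 and 735 CPM in gu163 (-2.53 ± 0.46, adjusted p = 0.00876). The cathepsin L gene Cbr-cpl-1 had 495, 373 and 272 CPM in gu167, against 1252, 871 and 822 CPM in gu163 (-1.37 ± 0.26), and Cbr-cpr-6 had 269, 191 and 103 CPM, against 708, 611 and 477 CPM (-1.67 ± 0.33). The strains were apart for all 3, with replicate 1 the highest and replicate 3 the lowest of the gu167 libraries. The cathepsin Z gene Cbr-cpz-1 (-1.45), Cbr-asp-4 (-0.87, lost in 5 of 9 fits) and Cbr-cpr-4 (-1.17, lost in 4) completed the lower ones.

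Transthyretin-like genes, a nematode family of small secreted proteins, moved mostly the other way among those called. Of 37 tested, 9 were higher and 3 were lower (32.4% called), with a median of 0.03. Cbr-ttr-17 had 58.9, 100 and 93.4 CPM in gu167, against 15, 23.1 and 31.3 CPM in gu163 (1.86 ± 0.27, adjusted p = 0.00404), and Cbr-ttr-30 had 98.1, 116 and 157 CPM, against 44.7, 35.4 and 59.4 CPM (1.41 ± 0.24, adjusted p = 0.00755). Neither pair of strains overlapped. Cbr-ttr-44 was lower (-0.89 ± 0.17, adjusted p = 0.0097). The 9 higher genes became 3 without gu163 replicate 1, gu163 replicate 2, gu167 replicate 2 or gu167 replicate 3 and 4 without gu167 replicate 1, and the 3 lower became 1 without gu163 replicate 1 or gu167 replicate 2 and 5 without AF16 replicate 3.

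Most genes of the mitochondrial ribosome were higher in gu167. All 62 tested genes of mitochondrial ribosomal proteins had a positive difference, 43 were called higher (69.4%, against 5.13% of all genes) and 0 lower by edgeR, by DESeq2 or at an unadjusted p under 0.05, and the median was 0.63, against 0.02 for all genes. The differences were small. Those called lay between 0.48 and 1.02, with a median of 0.68. Cbr-mrpl-38 was measured at 125, 110 and 106 CPM in gu167, against 62.5, 64.4 and 68.3 CPM in gu163, 1.74-fold higher (0.80 ± 0.12, adjusted p = 0.005). Cbr-mrpl-45 had 118, 110 and 106 CPM in gu167, against 66.4, 64.5 and 68.9 CPM in gu163 (0.74 ± 0.12, adjusted p = 0.00577), and Cbr-mrps-31 had 110, 109 and 109 CPM, against 51.7, 59.1 and 64.5 CPM (0.90 ± 0.15, adjusted p = 0.00668). No library of either strain crossed into the range of the other for these genes. The subunits shared the direction, with 24 of 35 large-subunit and 19 of 27 small-subunit genes called higher. The largest called difference was that of Cbr-mrpl-11 (1.02 ± 0.20), chosen after its value was seen. The summed level was 4532, 3859 and 3705 CPM in gu167, against 2597, 2551 and 2641 CPM in gu163. The count moved with single libraries more than the median did. Between 17 and 24 genes were called higher without gu167 replicate 1 (17), gu163 replicate 3 (18), gu163 replicate 1 (19), gu167 replicate 2 (22) or gu163 replicate 2 (24), and the list median lay between 0.50 and 0.71 in all 9 such fits. Library gu167 replicate 1 held the highest gu167 level for 40 of the 43.

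Other large complexes held few calls. Of 76 cytosolic ribosomal protein genes, 1 was higher and 1 was lower, with a median of 0.04. The lower one was Cbr-rpl-11.1, with 65.4, 39.2 and 20.2 CPM in gu167 against 269, 172 and 182 CPM in gu163 (-2.32 ± 0.38), and the higher one, Cbr-rpl-24.2 (0.57), lost its call in 4 of 9 fits (up to 0.0664). Among 35 respiratory chain genes encoded in the nucleus, edgeR called 0, DESeq2 called 0 and 0 passed an unadjusted p under 0.05, with a median of 0.13. Of 32 proteasome genes, all had a negative difference and the median was -0.37, and Cbr-rpn-3 alone was called (-0.51), a call lost in 7 of 9 fits (up to 0.166). The lower count was 4 without AF16 replicate 3, 2 by DESeq2 and 7 with a replicate block and the 6 mutant libraries alone. At an unadjusted p under 0.05, 9 proteasome genes were lower.

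Chaperone genes were called in both directions. Of 53 tested, 6 were higher and 6 were lower (22.6% called), with a median of -0.02. The heat shock gene Cbr-hsp-70 had 17.4, 5.92 and 12.4 CPM in gu167, against 98.6, 130 and 147 CPM in gu163, 10.6-fold lower (-3.40 ± 0.36, adjusted p = 0.00078). The small heat shock gene Cbr-hsp-17 was lower too (-1.15 ± 0.21, adjusted p = 0.0086). Cbr-dnj-21, whose counterpart works at the mitochondrial import motor, was higher, with 41.2, 39.5 and 46.4 CPM in gu167 against 25.1, 21.1 and 23.4 CPM in gu163 (0.87 ± 0.16, adjusted p = 0.0086). The following were chosen after their values were seen. The mitochondrial HSP70 gene Cbr-hsp-6 had 1525, 871 and 975 CPM in gu167, against 531, 480 and 574 CPM in gu163 (1.09 ± 0.24, adjusted p = 0.0178), a call lost without any 1 gu163 library (up to 0.0654). The mitochondrial DnaJ gene Cbr-dnj-10 (0.97; 0.0570 without gu163 replicate 1) and the mitochondrial chaperonin gene Cbr-hsp-60 (0.80, lost in 8 of 9 fits, up to 0.131) were higher. The endoplasmic reticulum chaperone genes Cbr-hsp-4 (-0.84 ± 0.17; 0.0649 without gu167 replicate 2), Cbr-dnj-27 (-1.04, lost in 5) and Cbr-dnj-7 (-0.54, lost in 8) were lower. The 6 higher became 1 without gu163 replicate 1 and 3 without gu163 replicate 2, gu163 replicate 3 or gu167 replicate 1. The 6 lower became 2 without gu167 replicate 2 and 3 without gu163 replicate 1, gu163 replicate 3, gu167 replicate 1 or gu167 replicate 3.

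Detoxification genes held large single differences in both directions, whereas the large ones among called lipid genes were lower. Of 109 xenobiotic metabolism genes tested, 5 were higher and 16 were lower (19.3% called), with a median of -0.05. The glutathione S-transferase genes Cbr-gst-12 (-2.27 ± 0.23, adjusted p = 0.000569) and Cbr-gst-5, with 16.2, 13.8 and 16.8 CPM in gu167 against 78.3, 61.0 and 57.3 CPM in gu163 (-2.07 ± 0.22), were lower, as was the cytochrome P450 gene Cbr-cyp-36A1 (-1.83 ± 0.27). Another P450 gene, Cbr-cyp-14A1, was 9.15-fold higher, with 17.0, 12.0 and 19.8 CPM in gu167 against 1.17, 2.07 and 1.93 CPM in gu163 (3.19 ± 0.59, adjusted p = 0.00911). The P-glycoprotein transporter gene Cbr-pgp-9 had 151, 158 and 154 CPM in gu167, against 56.1, 74.6 and 68.0 CPM in gu163 (1.22 ± 0.19), and was chosen after its values were seen. The 16 lower genes became 8 to 10 without any 1 of the gu163 replicates 1 and 3 and the 3 gu167 libraries, and the 5 higher became 11 without AF16 replicate 3, 2 without gu163 replicate 1 and 3 without gu163 replicate 3 or gu167 replicate 2 or 3. Of 79 lipid metabolism genes, 3 were higher and 8 were lower (13.9% called, close to the 13.5% of all genes). The 3 higher ones differed by 0.56 to 1.03. Cbr-far-3, of a secreted fatty acid and retinol binding protein, was 13.0-fold lower, with 26.6, 25.7 and 28.3 CPM in gu167 against 469, 157 and 422 CPM in gu163 (-3.70 ± 0.40, adjusted p = 0.00078), and the fatty acid elongase gene Cbr-elo-4 (-2.41 ± 0.35) and the short-chain dehydrogenase gene Cbr-dhs-11 (-1.37 ± 0.26) were lower too. The 8 lower lipid genes became 3 to 5 without any 1 gu163 or gu167 library and 15 without AF16 replicate 3, and the 3 higher became 0 without gu163 replicate 1, gu163 replicate 3 or gu167 replicate 1, 1 without gu167 replicate 2 and 5 without AF16 replicate 3.

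Neuronal, chemoreceptor and nuclear receptor genes held few calls. Of 132 neuronal genes tested, 4 were higher and 7 were lower (8.33% called, against 13.5% of all genes). The dopamine-synthesis gene Cbr-cat-2, of tyrosine hydroxylase, was lower (-2.80 ± 0.42), as was the insulin-like peptide gene Cbr-ins-10 (-2.21 ± 0.34), and the neuropeptide-like gene Cbr-nlp-26 was higher (1.26 ± 0.19). In gu167 few counts were found for Cbr-cat-2 (8, 10 and 4) and Cbr-ins-10 (5, 7 and 6). Chosen after their values were seen, the FMRFamide-like peptide genes Cbr-flp-1 (-2.27 ± 0.42) and Cbr-flp-6 (-1.50) and the insulin-like Cbr-ins-11 (-1.65) were also lower, and these 6 calls were kept without any 1 library. The glutamate receptor gene Cbr-glr-7 was higher (1.84; up to 0.0528 without gu163 replicate 1 or 3), and the 4 higher genes became 1 without gu163 replicate 1 and 2 without gu163 replicate 3 or gu167 replicate 2 or 3. Most chemoreceptor genes did not pass the filter, with 53 of 465 tested. Of these, 3 were higher, among them Cbr-srsx-32 (2.16, lost in 3 of 9 fits), and 2 were lower, Cbr-srh-25 (-2.27 ± 0.26) and Cbr-srw-84 (-1.64). Cbr-srsx-32 had only 13, 16 and 9 counts in gu167 and 1, 3 and 3 in gu163. The 3 higher became 0 without gu163 replicate 1, gu163 replicate 3 or gu167 replicate 2 and 1 without gu167 replicate 3, and the 2 lower became 6 without AF16 replicate 3. Of 118 nuclear hormone receptor genes, 3 were higher and 2 were lower (4.24% called), with a median of 0.20. Those higher included Cbr-nhr-31 (0.78 ± 0.15) and Cbr-nhr-212 (1.87, lost in 6, up to 0.123), while the lower Cbr-unc-55 (-1.86) and Cbr-nhr-41 lost the call in 4 and 6 of 9 fits. The 3 higher became 6 without AF16 replicate 3 and 1 without gu163 replicate 1 or 3 or any 1 gu167 library, and the 2 lower became 0 without gu163 replicate 1 or 3 or gu167 replicate 1 or 3 and 1 without gu163 replicate 2 or gu167 replicate 2.

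Germline and gamete genes were called in both directions. Of 56 germline genes tested, 3 were higher and 3 were lower (10.7% called, below the 13.5% of all genes), with a median of 0.06. The RecQ helicase gene Cbr-him-6, which acts in meiotic recombination, had 1.42, 2.02 and 2.01 CPM in gu167, against 7.94, 8.61 and 7.73 CPM in gu163 (-2.15 ± 0.28, adjusted p = 0.0022), without overlap. Of 8 sperm genes tested, 1 was higher and 2 were lower (37.5% called, against 13.5% of all genes). Cbr-spe-41, whose C. elegans counterpart is a calcium channel of sperm, had 0.417, 0.567 and 0.402 CPM in gu167, against 4.95, 7.70 and 5.80 CPM in gu163 (-3.68 ± 0.39). Cbr-spe-27, needed for sperm activation, had 1.17, 0.693 and 0.703 CPM in gu167, against 73.8, 28.7 and 9.58 CPM in gu163 (-5.43 ± 0.71, and -4.50 without gu163 replicate 1). Cbr-fer-1, of a ferlin needed for membrane fusion in sperm, went the other way, with 2.92, 2.83 and 4.22 CPM in gu167 against 0.391, 0.580 and 0.967 CPM in gu163 (2.28 ± 0.42, adjusted p = 0.00865). The sperm genes thus did not share a direction, and the sperm kinase gene Cbr-spe-6 was not called (-0.05, adjusted p = 0.932). The yolk receptor gene Cbr-rme-2 had 18.4, 20.8 and 23.9 CPM in gu167, against 37.6, 33.7 and 35.5 CPM in gu163 (-0.76), a call lost in 6 of 9 fits (up to 0.139). It was the 1 gene called of 4 on the yolk list (25%, against 13.5% of all genes). Without gu167 replicate 2 that list held 2 higher and 0 lower genes. Its median over all 9 libraries was 2.90, with 3 of 4 differences positive, but 0.61 without gu167 replicate 3. The summed level of the list was 65.1, 33.3 and 332 CPM in gu167, against 60.4, 67.8 and 55.9 CPM in gu163. Higher germline calls were not steady either. Cbr-syp-1, of the synaptonemal complex (1.67, lost in 5, up to 0.0908), and Cbr-puf-12 (0.67, lost without gu163 replicate 1 or gu167 replicate 2, up to 0.0679) were among the 3, which became 0 without gu163 replicate 1 or gu167 replicate 2 and 1 without gu163 replicate 2, gu163 replicate 3 or gu167 replicate 3. The lower germline genes became 1 without any 1 gu163 library or gu167 replicate 1 or 2. The yolk protein gene Cbr-vit-2 reached 10.4, 1.20 and 96.3 CPM in gu167 and 0.521, 4.64 and 0.564 CPM in gu163, a spread within gu167 with replicate 3 far above the others, and was not called (adjusted p = 0.0844). Whether this level bears on other differences was not tested. The germline markers Cbr-pgl-1 (-0.59), Cbr-glh-1 (-0.90), Cbr-htp-3 (0.62), Cbr-him-3 (-0.38), Cbr-puf-8 (0.11) and Cbr-gld-1 (-0.11) and the oocyte marker Cbr-egg-3 (0.34) were not called.

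Cell-cycle and small RNA genes showed few steady differences. Of 75 DNA replication and cell cycle genes, 9 were lower and 1 was higher (13.3% called, close to the 13.5% of all genes). Cbr-efl-3, of an E2F family factor, was lower and kept without any 1 library (-0.95 ± 0.17). The spindle checkpoint kinase gene Cbr-bub-1 (-0.61, lost in 3, up to 0.0651) and the kinesin gene Cbr-bmk-1 (-0.67, lost in 4, up to 0.0817) followed. The 9 lower became 1 without gu163 replicate 1 or gu167 replicate 2, 2 without gu167 replicate 3, 3 without gu163 replicate 2 or gu167 replicate 1 and 4 without gu163 replicate 3, and the 1 higher became 2 without AF16 replicate 3 and 0 without gu163 replicate 1, gu163 replicate 3 or any 1 gu167 library. Of 30 small RNA pathway genes, 2 were lower and 0 higher (6.67% called, below the 13.5% of all genes). These were the RNA-dependent RNA polymerase gene Cbr-rrf-1 (-0.92 ± 0.17) and Cbr-hpo-40 (-0.98, lost in 5, up to 0.122).

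Most of the tissue markers were not called. The body muscle genes Cbr-unc-54 (-0.21), Cbr-myo-3 (-0.36) and Cbr-unc-15 (-0.18), the intestinal Cbr-elt-2 (0.18), Cbr-ges-1 (-0.14) and Cbr-act-5 (0.26), and the neuronal Cbr-rab-3 (0.11), Cbr-unc-31 (-0.10), Cbr-egl-3 (-0.40) and Cbr-snb-1 (-0.47) were not called, and neither were the pharyngeal Cbr-myo-2 (-1.11) and Cbr-pha-4 (-0.53). The remaining intestinal marker, the protease gene Cbr-cpr-1 described above, was called lower (-2.53, adjusted p = 0.00876). In the epidermis, Cbr-dpy-7 (-1.17, adjusted p = 0.0865) and Cbr-bli-1 (-1.12, 0.109) were not called either, beside the called Cbr-rol-6. The adult collagen gene Cbr-col-19 was not called (0.83, 0.304). Of 16 late-larval and adult-stage genes tested, 5 were lower and 0 higher (31.2% called), and these were the collagen and molting genes Cbr-rol-6, Cbr-sqt-2, Cbr-dpy-5, Cbr-col-38 and Cbr-mlt-10, with 3 genes higher at an unadjusted p under 0.05 and 0 higher by DESeq2. The 5 became 2 without gu163 replicate 1, gu167 replicate 1 or gu167 replicate 3, and the higher count became 2 without gu167 replicate 2 and 1 without AF16 replicate 3. The muscle list, drawn by gene symbol, held 1 call among 44 genes (2.27%), Cbr-mlc-4, of a myosin light chain (-0.57 ± 0.16). That call was lost in 5 of 9 fits (up to 0.15), and whether the gene acts in muscle was not checked. The intestine list held 1 higher and 4 lower genes of 30 (16.7% called) and the pharynx and excretory cell list 5 lower of 29 (17.2%), against 13.5% of all genes. In the last, the pharyngeal gland gene Cbr-phat-3 (-3.77 ± 0.60) and Cbr-abu-13 (-2.21 ± 0.40) were kept without any 1 library, as was the intestinal Cbr-gem-4 (-1.08 ± 0.18). Cbr-phat-3 rested on few counts, with 6, 3 and 2 in gu167 and 50, 36 and 39 in gu163. Cbr-lpr-7, of a lipocalin-related protein, was lower (-2.16 ± 0.58), a call lost in 4 of 9 fits (up to 0.123), with -2.80 without gu167 replicate 2, and the intestinal Cbr-lact-4 was lower (-0.99 ± 0.24), lost in 5 (up to 0.0895). The 5 genes of the pharynx and excretory list became 2 without gu163 replicate 1, gu163 replicate 3 or gu167 replicate 3, 3 without gu167 replicate 2 and 9 without AF16 replicate 3, and the 4 lower intestinal genes became 2 without gu163 replicate 2 or 3 or gu167 replicate 2 or 3. The 1 higher intestinal gene became 3 without gu163 replicate 2 and 0 without gu163 replicate 1 or 3 or any 1 gu167 library, and 1 pharynx and excretory gene was higher without AF16 replicate 2 or 3.

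**Figure D4:**
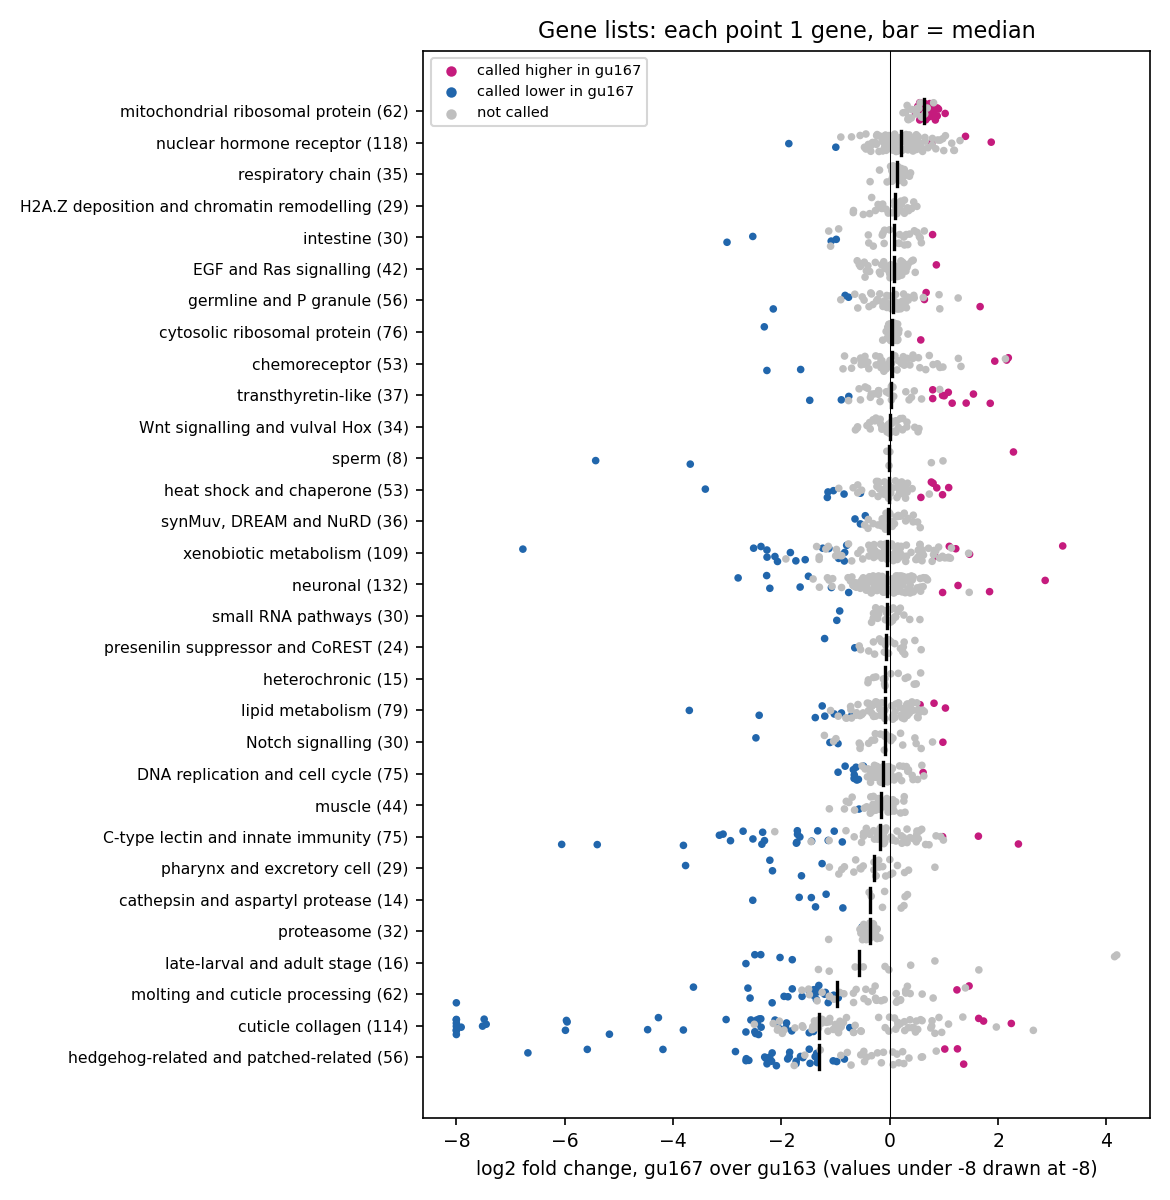
Log2 differences of gu167 over gu163 for the tested genes of 31 gene lists with at least 8 tested genes; each point is 1 gene, the bar is the list's median, and values under -8 are drawn at -8. Mitochondrial ribosomal proteins all lie above 0, with a median of 0.63, and collagens and hedgehog-related genes both have a median of -1.31.

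The largest differences included genes without a symbol. CBG13822 had 10.2, 9.95 and 7.94 CPM in gu167, against 0.391, 0.580 and 0.564 CPM in gu163, while AF16 had 8.86, 9.30 and 11.5 CPM. It was the highest difference among all called genes, 17.5-fold (4.13 ± 0.27, adjusted p = 2.16e-05), and gu163 alone was low. CBG14973 had 61.5, 83.4 and 137 CPM in gu167, against 8.59, 13.8 and 18.1 CPM in gu163 (2.78 ± 0.37, adjusted p = 0.00228). CBG23415 had 7.93, 7.12 and 8.74 CPM in gu167, against 1.43, 1.24 and 1.13 CPM in gu163 (2.65 ± 0.46, adjusted p = 0.00768), and both calls were kept without any 1 library. The AF16 mean was 43.0 CPM for CBG14973, between the mutants, and 0.327 CPM for CBG23415, below both. CBG11551 had 0.751, 0.441 and 0.201 CPM in gu167, against 116, 89.0 and 111 CPM in gu163 (-7.76 ± 0.45, adjusted p = 1.45e-05), and CBG06596 had 1.09, 1.01 and 0.502 CPM, against 263, 117 and 184 CPM (-7.70 ± 0.44, adjusted p = 1.31e-05). Both of these lower genes varied by less than 3-fold within gu163. CBG21994, by contrast, spread widely there, with 0, 0.189 and 0.201 CPM in gu167 against 60.0, 19.1 and 5.48 CPM in gu163 (-7.61 ± 1.07, and -6.46 without gu163 replicate 1). The AF16 means of CBG11551, CBG06596 and CBG21994 were 0.714, 1.13 and 0.142 CPM, so gu163 alone was high for these genes. Among genes with a symbol that were higher, Cbr-sul-3, of a sulfatase, had 10.4, 13.7 and 16.6 CPM in gu167, against 1.30, 2.90 and 3.54 CPM in gu163 (2.34 ± 0.34, adjusted p = 0.00379). Cbr-ddo-1, of a D-aspartate oxidase, had 15.4, 18.2 and 16.5 CPM in gu167, against 3.78, 4.89 and 4.11 CPM in gu163 (1.96 ± 0.27). Cbr-cpg-4, of a chondroitin proteoglycan, was also among them (1.75, lost in 5 of 9 fits without 1 library, up to 0.0797).

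The AF16 libraries, which did not enter the difference, lay between the mutants for most called genes. The AF16 mean lay between the gu167 and gu163 means for 1300 of the 1683 called genes, against 5097 of the 12507 tested. Called genes were selected for a gap between the mutants, which by itself raises the first share. The contrast therefore does not show that AF16 was intermediate. It was nearer gu167 for 1130 (67.1%), against 6878 of the 12507 genes tested (55%). The share was 506 of 641 (78.9%) for genes called higher in gu167 and 624 of 1042 (59.9%) for genes called lower. By list, AF16 was nearer gu167 for 42 of the 43 called mitochondrial ribosomal proteins and for 20 of the 21 lower immunity genes. Cbr-clec-86, for example, stood at 5.80 ± 0.795 CPM in gu167 and 81.5 ± 6.40 CPM in gu163, with 6.53 ± 2.29 CPM in AF16, and Cbr-mrpl-38 at 113 ± 10.1 CPM in gu167 and 65.1 ± 2.96 CPM in gu163, with 103 ± 2.24 CPM in AF16 (SD, n = 3). For the hedgehog-related genes AF16 was nearer gu163 in 22 of the 29 lower ones and for the molting genes in 17 of 24. The 39 lower collagens were divided, with AF16 nearer gu167 for 21 and nearer gu163 for 18. AF16 was nearer gu167 for all 17 that had under 5 CPM in both gu167 and AF16, a limit that itself favours this placement. Of the other 22, AF16 was nearer gu163 for 18 and nearer gu167 for 4. Cbr-rol-6, at 668 ± 210 CPM in AF16, lay between the mutants. These placements compare means of log2(CPM + 1) and were not tested.

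**Figure D5:**
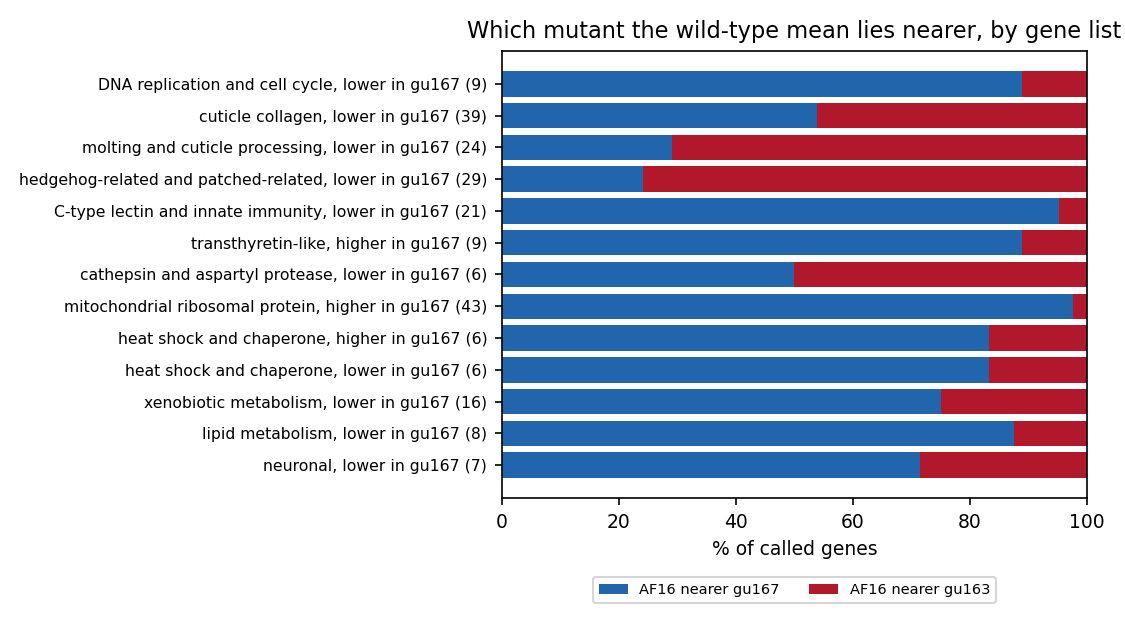
Percent of the genes called between gu167 and gu163 for which the AF16 mean lay nearer gu167 or nearer gu163, for 13 groups of called genes by list and direction. AF16 lay nearer gu167 for 42 of 43 higher mitochondrial ribosomal proteins and nearer gu163 for 22 of 29 lower hedgehog-related genes.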

How the data were processed

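RNA was measured in 9 libraries of whole C. briggsae larvae, 3 per strain. The deposited values are raw counts of reads per gene, with no normalization by the authors, in 1 file per library and in a table of the series with the same counts. Tools listed without versions in the submitters' processing notes are STAR, Trim Galore, DESeq and FastQC. The sources used here do not give the genome build, annotation, counter or use of strand. Locus tags were matched to symbols in a RefSeq gene table of assembly CB4, used only for names and gene order (22727 identifiers matched, 195 did not, and 39.4% of the tested genes had a symbol).

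Testing used edgeR 4.0.16 under R 4.3.3, with TMM scaling, filterByExpr at a minimum count of 10 and a robust quasi-likelihood F test. All 9 libraries entered 1 fit with 3 groups, so the AF16 libraries shared the estimate of spread but not the mean difference. The p-values were adjusted by Benjamini-Hochberg over 12507 genes. An FDR of 0.05% stands in the labels, and it was read as 0.05, with 0.0005 as an alternative. The standard error was taken from the F statistic. In these libraries 3 counts correspond to 0.189 to 0.391 CPM. Genes with 3 or fewer counts in the lower strain are given as ratios with exact 95% intervals, which cover counting error only. The steps were tested on simulated data. Separate cultures are not described beyond the word independent, so p-values measure the spread between these samples.

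Members, gene lists and naming rule were chosen with earlier results of these data known, and no list was tested as a set. Named were Cbr-spr-4, Cbr-htz-1 and Cbr-lin-3, then, among called genes with at least 5 CPM in the higher strain and no overlap, the 10 largest differences each way with a symbol and the 3 largest without, the 3 called members of each list with the smallest adjusted p, and up to 5 called signalling genes per list. Other genes are given as list members or as chosen after their values were seen. Alternatives were DESeq2 1.42.0, limma-voom (limma 3.58.1), RLE and upper-quartile normalization, other filters, the 6 mutant libraries alone, a replicate block, and fits without 1 library.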

Additional observations from a re-analysis of the deposited data

How the results depend on the processing

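No called direction reversed under any alternative run for the counts and named genes. Genes called higher and lower in gu167, 641 and 1042 by edgeR, numbered 869 and 1356 by DESeq2, 631 and 1016 by limma-voom, 629 and 1043 with RLE, 738 and 936 with upper-quartile scaling (44.1% higher, against 38.1%), 559 and 951 with no filter, 567 and 898 with a minimum count of 50, and 905 and 1385 with the 6 mutant libraries alone. At an adjusted p under 0.0005 they numbered 1 and 24, and without gu163 replicate 1 and gu167 replicate 3 together 25 and 151. Fits without 1 library gave 190 to 984 higher and 471 to 1504 lower genes. Deviations of gu167 and gu163 libraries of the same replicate number correlated at 0.23, -0.08 and 0.25. Of the gu167 libraries, replicates 1 and 3 correlated best with the gu163 library of their own number. For gu167 replicate 2 the best was gu163 replicate 1 (0.05). Whether replicate numbers mark shared batches was not tested. With a replicate block the counts were 436 and 804, and 1065 and 1497 with the block and 6 libraries. Without gu163 replicate 1 and gu167 replicate 3 together, 17 collagens, 5 hedgehog-related, 2 molting and 7 immunity genes were lower and 3 mitochondrial ribosomal proteins higher. Over all alternatives, named genes kept direction and call in 1640 values and lost the call in 308. The cause was not tested. The depth limits the lowest collagens in gu167, where 1 to 12 counts set the fold.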

Other observations

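Some gene families outside the lists above also differed, chosen after their values were seen. They came from near the top of a ranking of many families by share called, which went down to 0%. The shares called were 66.7% of cadherin, 62.5% of lips and 40.0% of ced genes, against 13.5% of all genes (8.33% lower). Of 9 tested cadherin genes, 6 were lower in gu167 and the median difference was -1.12. Cbr-cdh-8 had 5.59, 6.30 and 4.52 CPM in gu167, against 41.7, 21.3 and 26.3 CPM in gu163, without overlap (-2.43 ± 0.33, edgeR adjusted p = 0.0028). It and Cbr-cdh-12 (-1.87 ± 0.38) stayed called without any 1 library, whereas Cbr-cdh-3, Cbr-cdh-5, Cbr-cdh-7 and Cbr-cdh-10 lost the call in 5 to 7 of 9 such fits. Of 8 lips genes, which encode lipase-related proteins, 5 were lower with a median of -1.41, led by Cbr-lips-9 (-2.25 ± 0.43), kept without any 1 library. Of 10 genes with a ced symbol, named in C. elegans for cell death and corpse engulfment, 4 were lower, while the family's median was 0.03. Cbr-ced-7, of an ABC transporter that acts in engulfment, had 154, 168 and 171 CPM in gu167, against 322, 381 and 310 CPM in gu163 (-1.04 ± 0.15), and was kept without any 1 library, and Cbr-ced-1, the engulfment receptor gene, was lower too (-0.82, lost in 4 of 9 fits).

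Some called genes stood side by side in the order of assembly CB4. Among 12326 pairs of neighbouring tested genes, both were called in 308, in the same direction in 241 and in opposite directions in 67. With 13.5% of all genes called, some neighbours would both be called without any link between them. How many was not worked out, and grouping along the genome was not tested. Runs of 5 consecutive lower genes were CBG03654, Cbr-sco-1, CBG03656, CBG03659 and CBG03660 (-3.90 to -1.02), the run that ended with CBG11551 (-7.76 to -1.62) and the run of CBG21990 to CBG22000 (-7.61 to -1.38). CBG21994 lay in the last of these. A run of 4 higher genes was made of CBG27299, CBG27297, CBG27296 and CBG27294 (2.20 to 3.83). Cbr-spe-27 lay in a run of 4 lower genes with CBG19842, CBG19827 and Cbr-glf-1, of a UDP-galactopyranose mutase, which had 367, 358 and 171 CPM in gu167 against 1516, 736 and 932 CPM in gu163 (-1.83 ± 0.36). Cbr-srh-25 lay in another with CBG23492, CBG23491 and CBG23490 (-6.06 to -2.27). Whether strand was used in counting is not given, and reads that run from a gene into its neighbour could not be told apart here from reads of that neighbour.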
